A study of Mus musculus with 6 samples.

Results

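The genes described here are the collagens and a group of matrix remodelling genes in whole liver. A gene was taken when its symbol is Col, a number, a and a number, or is one of 20 named genes for proteoglycans, glycoproteins, cross-linking enzymes, proteases and their inhibitors, transforming growth factor beta and stromal markers. The rule reads symbols alone and gave 60 of the 16135 genes of the table, 40 collagens and all 20 named genes. Transcript abundance was read as FPKM, the fragment count of a gene scaled to its length and to the library's total. The 2 groups were ACSS2-HKO, mice described as a knockout of ACSS2 in hepatocytes (3 libraries), and ACSS2-flox, mice with a floxed Acss2 gene and no deletion named in the labels (3 libraries). Every mouse, ACSS2-HKO and ACSS2-flox alike, was fed the Lieber-Decarli liquid diet with ethanol (10 days) and given 1 ethanol binge, so none of the 6 libraries comes from a mouse without alcohol. ACSS2 makes acetyl-CoA from acetate in the cytosol and nucleus. The question of the comparison is what loss of ACSS2 in hepatocytes does to the liver transcriptome under alcohol. The sources used here do not give the promoter that drives the deletion, the exons it removes, the age, sex and strain of the mice, or whether the 3 libraries of a group are 3 animals. The p-values therefore measure the spread between these libraries, which may be partly technical.

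Collagens are chains that wind in threes into a helix. Fibrillar collagens such as types I, III and V form the cables of scar tissue, and type IV collagen forms the sheet of basement membranes. In liver the fibrillar chains, lumican, decorin and lysyl oxidases come mainly from hepatic stellate cells and portal fibroblasts, while hepatocytes make fibronectin and collagen XVIII themselves. Stellate cells that become myofibroblasts under transforming growth factor beta produce more collagen and smooth muscle actin, and TIMP proteins block the metalloproteinases that degrade matrix.

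The FPKM values imply totals of 35362997 to 39474527 fragments in ACSS2-HKO and 33717125 to 38321306 in ACSS2-flox. Over the 9818 genes that averaged 1 FPKM or more, the median absolute log2 difference of a library from each of the others averaged 0.42 for ACSS2-flox replicate 1 and 0.29 for ACSS2-HKO replicate 3, against 0.24 to 0.25 for the other 4. These 2 libraries are called distant here, and values without both are given beside many of the results, though not for ratios. ACSS2-flox replicate 1 had the lowest FPKM of 52.9% of those genes. Acss2, the targeted gene, read 50.6, 38.4 and 45.7 FPKM in ACSS2-HKO, against 87.8, 61.5 and 58.5 FPKM in ACSS2-flox. The groups did not overlap, and the log2 fold change was -0.60 ± 0.21 (SE; limma adjusted p = 0.637). All 12 hepatocyte markers were present, with a median log2 fold change of -0.23, and -0.10 without both distant libraries. Their summed levels were 53477.5 to 60520.4 FPKM in ACSS2-HKO. In ACSS2-flox they were 92116 FPKM in replicate 1, and 63717 and 60307 FPKM in the other libraries.

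Most matrix genes read higher in ACSS2-HKO, and none passed the threshold. The 3 most abundant fibrillar collagen genes, the metalloproteinase gene Mmp14 and the inhibitor gene Timp1 had their lowest ACSS2-HKO value above their highest ACSS2-flox value. The smooth muscle actin gene Acta2 and the inhibitor gene Timp3 had almost equal means. Of the 60 genes, 23 averaged 1 FPKM or more across the 6 libraries and were tested with limma on log2(FPKM + 1), adjusted over all 9818 such genes, and 37 lay under that level. A gene that passed this level only through the group where it is high had to differ, so the 23 are not an unbiased sample of the 60. By limma 0 of the 23 passed an adjusted p of 0.05, as did 0% of all tested genes. At an unadjusted p under 0.05 there were 6 higher (background 6.09%) and 0 lower (background 1.5%). The smallest adjusted p was 0.607 among the 23 and 0.452 among all genes. Voom on recovered fragments, added after seeing the data, also gave 0 after adjustment. Leaving out ACSS2-HKO replicate 2 made the count of 6 higher calls 9 (background 5.9%), leaving out ACSS2-HKO replicate 3 made it 3 (background 2.87%), and leaving out ACSS2-flox replicate 1 made it 2 (background 5.11%).

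A positive log2 fold change means a higher value in ACSS2-HKO. These changes were positive for 21 of the 23 tested genes, against 66% of all tested genes. The groups did not overlap for 7 of the 23, all higher in ACSS2-HKO, where 12.5% of all tested genes were higher without overlap. For lower values without overlap the count was 0 of 23 and the background 2.94%. Without both distant libraries 8 of the 23 were higher without overlap, the same 7 and Postn, against 23.4% of all tested genes. Lower without overlap were then 0 of the 23, against 17.7% of all tested genes. The median log2 fold change of the 23 was 0.48, or 0.38 above the median of 0.10 of all tested genes. It was 0.26 without ACSS2-flox replicate 1 and 0.16 without both distant libraries, where the median of all genes was 0.03. After median-ratio scaling, which sets the median of all genes to -0.01, it was 0.37 with 21 of 23 positive. Log2 fold changes given for single genes keep the deposited scale and are to be read against the 0.10 of all genes.

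**Figure D1:**
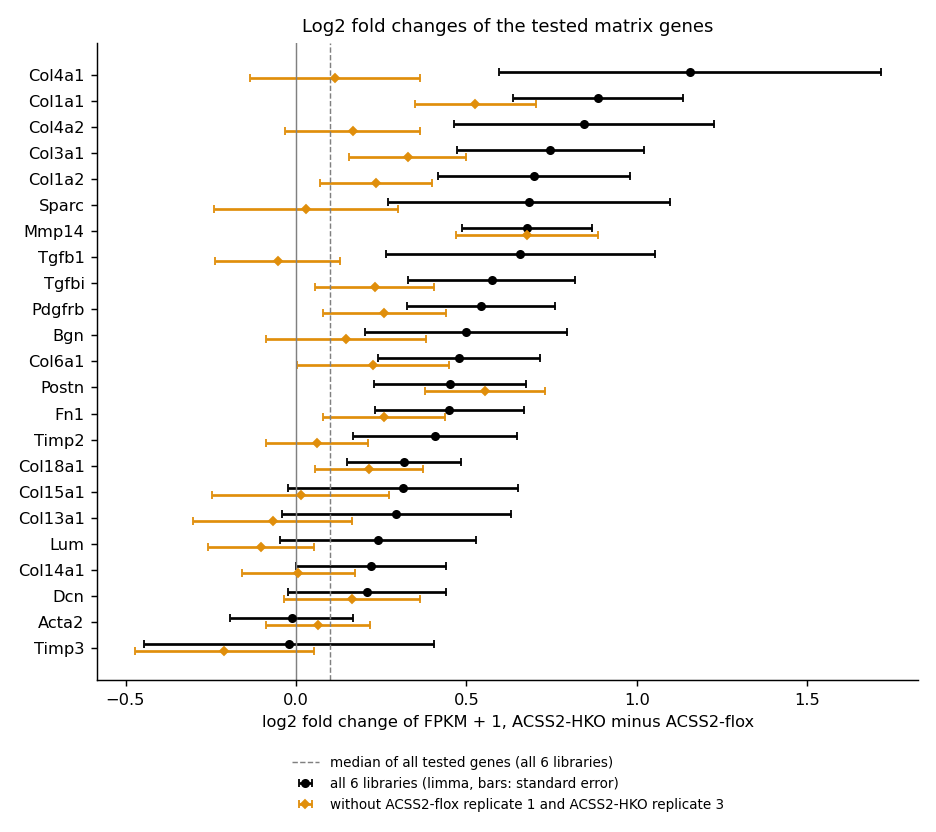
Log2 fold change of FPKM + 1, ACSS2-HKO minus ACSS2-flox, for the 23 tested matrix genes, with all 6 libraries (circles) and without ACSS2-flox replicate 1 and ACSS2-HKO replicate 3 (diamonds). Bars are standard errors, the dashed line is the median of all tested genes (0.10), and with fewer libraries Mmp14 stays at 0.68 while Col4a1 is at 0.11, against 1.16 with all libraries.

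The position of single libraries was uneven. ACSS2-HKO replicate 3 had the highest value of 13 of the 23 genes (background 21.3%). ACSS2-flox replicate 1 had the lowest value of 21 of the 23, where its background is the 52.9% given above. The exceptions were Mmp14, lowest in ACSS2-flox replicate 3, and Acta2, lowest in ACSS2-HKO replicate 2. The median deviation of the 23 from their own means was -0.71 in ACSS2-flox replicate 1 on the log2 scale, against -0.25 for all genes. The matrix genes were long, with a median recovered length of 4681 bases that exceeds that of 71.5% of tested genes. After a correction for gene length the deviation in ACSS2-flox replicate 1 was -0.39, against -0.01 for all genes, and the median log2 fold change of the 23 was 0.36. The part of the other differences of that library in these values was not tested.

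The tested fibrillar collagens all read higher in ACSS2-HKO. The table holds 11 fibrillar chains, of which 3 were tested, and all 3 were at an unadjusted p under 0.05 by limma (background 6.09% higher) with groups that did not overlap (background 12.5%). Col1a1 (chromosome 11, 94936224 to 94953042 on GRCm38, which all coordinates here use), the alpha 1 chain of type I collagen, read 2.68, 1.96 and 4.29 FPKM in ACSS2-HKO, against 0.740, 1.12 and 1.48 FPKM in ACSS2-flox. The lowest ACSS2-HKO value lay above the highest ACSS2-flox value, and the means of 2.98 ± 1.19 FPKM in ACSS2-HKO and 1.11 ± 0.369 FPKM in ACSS2-flox (SD, n = 3 each) had a ratio of 2.67. Its log2 fold change was 0.89 ± 0.25 (SE; limma adjusted p = 0.607), and 0.53 ± 0.18 without both distant libraries. Col1a2 (chromosome 6, 4504814 to 4541544), the alpha 2 chain that joins 2 alpha 1 chains in type I collagen, read 3.10, 3.01 and 5.65 FPKM in ACSS2-HKO, against 1.15, 2.11 and 2.82 FPKM in ACSS2-flox. Its groups were apart by a narrow margin, 3.01 FPKM in ACSS2-HKO against 2.82 FPKM in ACSS2-flox, and its log2 fold change of 0.70 ± 0.28 (limma adjusted p = 0.637) was 0.23 ± 0.17 without both distant libraries. Col3a1 (chromosome 1, 45311538 to 45349706), the single chain of type III collagen, read 6.63, 6.62 and 12.3 FPKM in ACSS2-HKO, against 3.44, 4.37 and 5.88 FPKM in ACSS2-flox. It had the highest FPKM of the fibrillar chains in each library. Its log2 fold change was 0.75 ± 0.27 (limma adjusted p = 0.637), and 0.33 ± 0.17 without both distant libraries. For each of the 3 the exact two-sided permutation p was 0.1, the smallest that 3 libraries against 3 allow.

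Type V collagen, which sits inside type I fibrils and sets their width, averaged under 1 FPKM across the 6 libraries. Col5a2 (chromosome 1, 45374321 to 45503282) read 0.825, 1.17 and 2.31 FPKM in ACSS2-HKO, against 0.287, 0.671 and 0.631 FPKM in ACSS2-flox. Col5a1 read 0.893, 0.641 and 1.04 FPKM in ACSS2-HKO, against 0.307, 0.505 and 0.616 FPKM in ACSS2-flox. Both chains were without overlap, Col5a1 by 0.641 FPKM in ACSS2-HKO against 0.616 FPKM in ACSS2-flox. Col5a3 read 0.564 to 0.731 FPKM in ACSS2-HKO and 0.363 to 0.602 FPKM in ACSS2-flox, with overlap. Col27a1 had the lower mean in ACSS2-HKO, with 0.737 ± 0.294 FPKM in ACSS2-HKO and 0.835 ± 0.259 FPKM in ACSS2-flox (SD, n = 3 each) and overlapping groups. The cartilage chains were near the bottom of the table. Col2a1 and Col11a1 were listed at 0 in all 3 ACSS2-flox libraries and in ACSS2-HKO replicate 1, and the highest value of either was 0.076 FPKM.

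The fibrillar chains that read higher without overlap were Col1a1, Col1a2, Col3a1, Col5a1 and Col5a2. Col1a1 had no promoter entry in the source used, and Col5a2 is not shown. The promoters of the other 3 are shown, so that the sequences before their starts can be compared. They are from RefSeq (GRCm38.p6, the mm10 assembly), 5′ to 3′ on the gene's strand, and end 1 base before the RefSeq start, except Col1a2. For Col1a2 the 123 bases outside annotated UTRs are given, from 248 to 126 bases before the RefSeq start. The bases nearest that start are not shown. Capitals mark matches, on both strands, to the CCAAT box (CCAAT), the GC box (GGGCGG), AP-1 (TGANTCA and TGAGTAA), the SMAD-binding letters CAGACA and the TATA box (TATAAA).
Col3a1 (chr1:45311288-45311537, plus strand): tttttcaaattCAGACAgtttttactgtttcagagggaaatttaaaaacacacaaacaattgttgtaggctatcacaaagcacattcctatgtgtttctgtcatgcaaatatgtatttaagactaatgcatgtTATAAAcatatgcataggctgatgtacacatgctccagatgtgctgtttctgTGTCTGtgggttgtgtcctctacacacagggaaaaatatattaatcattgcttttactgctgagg
Col1a2 (chr6:4505370-4505492, plus strand): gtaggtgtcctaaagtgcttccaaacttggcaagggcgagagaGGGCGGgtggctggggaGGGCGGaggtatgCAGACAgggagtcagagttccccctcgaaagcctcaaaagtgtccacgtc
Col5a1 (chr2:27886175-27886424, plus strand): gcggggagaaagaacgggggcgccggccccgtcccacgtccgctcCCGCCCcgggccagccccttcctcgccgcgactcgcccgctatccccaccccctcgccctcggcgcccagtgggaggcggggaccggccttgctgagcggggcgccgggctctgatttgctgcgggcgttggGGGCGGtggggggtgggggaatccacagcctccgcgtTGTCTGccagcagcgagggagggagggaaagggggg

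The 3 fibrillar stretches shown differ, and that of Col1a2 is shorter and leaves out the bases nearest the start, so matches there cannot be compared. Col3a1 has 2 SMAD matches, no GC box and a match to the TATA box letters that ends 112 bases before the start. Col5a1 has 2 GC boxes and 1 SMAD match, and Col1a2 has 2 GC boxes and 1 SMAD match in the stretch shown. RefSeq promoters were found for 43 of the 60 genes (46 promoters). In the 250 bases before the start, 63% of these 46 held a GC box, against 57.5% of promoters of tested genes and 32.7% of all promoters. SMAD letters were in 21.7% of the 46, 13% of promoters of tested genes and 17.1% of all. CCAAT was in 32.6%, 35.4% and 33.8% in the same order, and the TATA box in 10.9%, 6.65% and 12.4%. The AP-1 letters TGANTCA were in 2.17%, 4.68% and 6.75%, and TGAGTAA in 2.17%, 1.37% and 2.25%. These are counts of letters and say nothing of whether a factor binds.

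**Figure D2:**
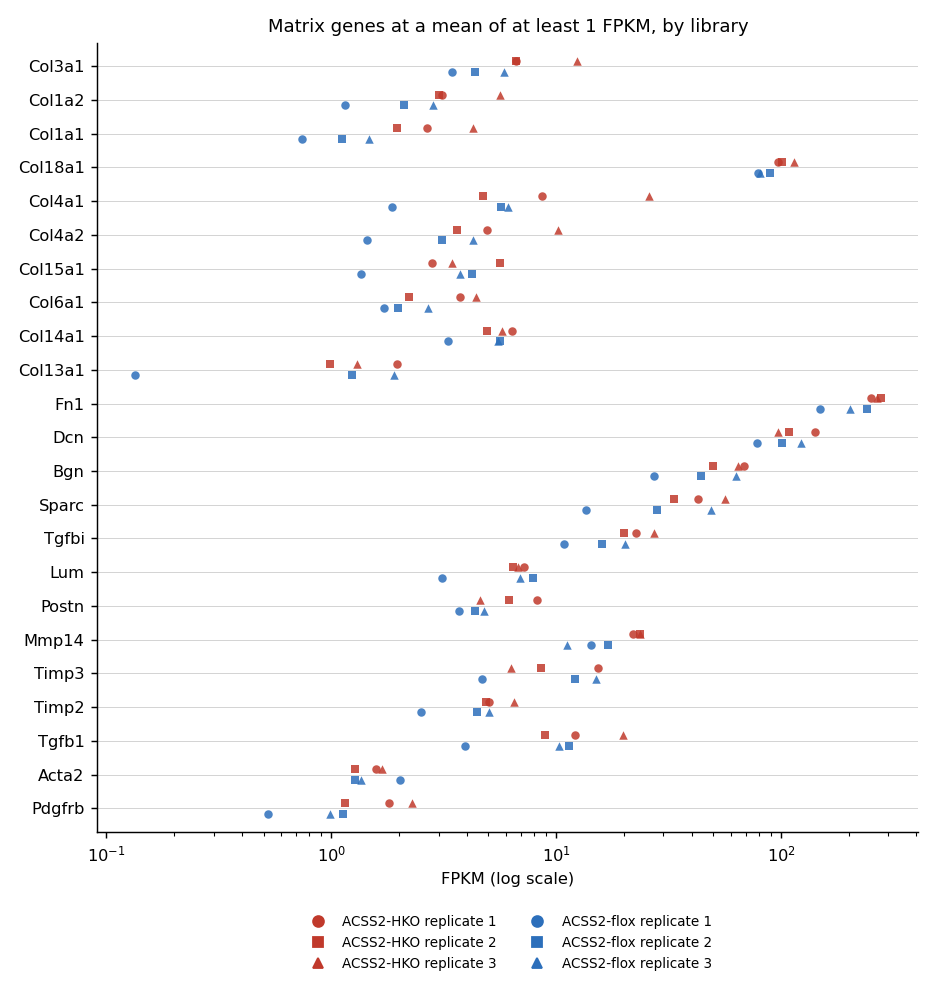
FPKM (log scale) of the 23 tested matrix genes, each point a library, ACSS2-HKO in red above ACSS2-flox in blue, with the marker shape giving the replicate. Col1a1 and Mmp14 are among the 7 genes whose red points all lie right of the blue ones, and the blue circle of ACSS2-flox replicate 1 is leftmost in 21 of the 23 genes.

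Among basement membrane collagens, Col4a1 had the largest log2 fold change of the 23 tested matrix genes, and its size rested on the 2 distant libraries. Of 9 such genes 4 were tested. Col4a1 (chromosome 8, 11198423 to 11312826) and Col4a2 (chromosome 8, 11312805 to 11449287) encode the 2 chains of the common type IV molecule and lie head to head, on the minus and plus strand, with 5′ ends that overlap by 22 bases. Col4a1 read 8.68, 4.72 and 25.9 FPKM in ACSS2-HKO, against 1.86, 5.67 and 6.08 FPKM in ACSS2-flox. The groups overlapped, and ACSS2-HKO replicate 3 stood far above the rest. Its log2 fold change of 1.16 ± 0.56 (limma adjusted p = 0.669) was 0.54 without that library, 0.73 without ACSS2-flox replicate 1 and 0.11 ± 0.25 without both distant libraries. Col4a2 read 4.92, 3.62 and 10.2 FPKM in ACSS2-HKO, against 1.44, 3.11 and 4.28 FPKM in ACSS2-flox, and its log2 fold change of 0.84 ± 0.38 (limma adjusted p = 0.652) was 0.17 ± 0.20 without both. Both genes were lowest in ACSS2-flox replicate 1 and highest in ACSS2-HKO replicate 3. The kidney-type chains were scarce, Col4a5 at means of 0.307 FPKM in ACSS2-HKO and 0.224 FPKM in ACSS2-flox, and Col4a3, Col4a4 and Col4a6 at 0.0371 to 0.0923 FPKM in ACSS2-HKO and 0.0146 to 0.0519 FPKM in ACSS2-flox.

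Col18a1 (chromosome 10, 77052178 to 77166548), the source of the fragment endostatin, was the most abundant collagen gene of the table. It read 96.7, 100.5 and 114 FPKM in ACSS2-HKO, against 78.9, 89.7 and 80.3 FPKM in ACSS2-flox, without overlap. The difference was small, a ratio of means of 1.25 with log2 fold change 0.32 ± 0.17 (limma adjusted p = 0.675), and 0.21 ± 0.16 without both distant libraries. Col15a1, its close relative, read 2.81 to 5.62 FPKM in ACSS2-HKO and 1.35 to 4.24 FPKM in ACSS2-flox, with overlap, and its log2 fold change of 0.31 ± 0.34 was 0.01 without both distant libraries. Col7a1, the anchoring fibril chain, had at most 2 fragments in a library.

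Other collagens were few and uneven. Col6a1, a chain of the beaded microfibril, read 3.72, 2.21 and 4.39 FPKM in ACSS2-HKO, against 1.72, 1.99 and 2.70 FPKM in ACSS2-flox. ACSS2-HKO replicate 2 lay inside the ACSS2-flox range, and the log2 fold change was 0.48 ± 0.24 (limma adjusted p = 0.67), and 0.23 ± 0.22 without both distant libraries. Its partner chains Col6a2 and Col6a3 had means of 0.969 and 0.579 FPKM in ACSS2-HKO and 0.671 and 0.402 FPKM in ACSS2-flox, with overlap. Col14a1, which binds the surface of fibrils, read 4.90 to 6.34 FPKM in ACSS2-HKO and 3.30 to 5.61 FPKM in ACSS2-flox, with overlap. Its log2 fold change was 0.22 ± 0.22 (limma adjusted p = 0.833), and 0.01 without both distant libraries. Col13a1, a transmembrane collagen, read 0.134 FPKM in ACSS2-flox replicate 1 and 0.986 to 1.96 FPKM in the other 5 libraries. Without that library its log2 fold change of 0.29 became -0.09. Col20a1 was without overlap, at 0.254, 0.215 and 0.479 FPKM in ACSS2-HKO, against 0.159, 0.187 and 0.185 FPKM in ACSS2-flox. Col8a1, a short-chain network collagen, read 0.0609, 0.240 and 0.525 FPKM in ACSS2-HKO, against 0.128, 0.110 and 0.143 FPKM in ACSS2-flox. Of all 60 genes, 12 were at 0 in at least 1 library. All 12 are collagens, the highest mean over the 6 libraries being 0.0525 FPKM in Col9a3, and Col25a1 had 1 fragment in each ACSS2-flox library and none in ACSS2-HKO. A count of 0 allows up to 3 fragments, so such values do not separate the groups, and this limit covers counting error only.

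Secreted proteoglycans and glycoproteins held Fn1 and Dcn, the most abundant of the 60 genes, and 7 of 9 were tested, all with positive log2 fold changes. Fn1 (chromosome 1, 71585520 to 71653200) encodes fibronectin, which plasma and matrix share. It read 251, 279 and 266 FPKM in ACSS2-HKO, against 149, 242 and 202 FPKM in ACSS2-flox. The groups did not overlap, and the log2 fold change was 0.45 ± 0.22 (limma adjusted p = 0.668), or 0.26 ± 0.18 without both distant libraries. Dcn, which encodes the fibril-binding proteoglycan decorin, read 142, 109 and 96.5 FPKM in ACSS2-HKO, against 78.2, 100.5 and 122 FPKM in ACSS2-flox, with overlap and a log2 fold change of 0.21 ± 0.23, or 0.16 ± 0.20 without both. Bgn (biglycan) and Lum (lumican), its relatives, overlapped. The log2 fold change of Bgn was 0.50 ± 0.30, and 0.15 ± 0.23 without both distant libraries. That of Lum was 0.24 ± 0.29 and turned to -0.10 ± 0.16 without them. Tgfbi, an adhesion protein induced by transforming growth factor beta, read 22.7, 19.95 and 27.3 FPKM in ACSS2-HKO, against 10.8, 16.0 and 20.2 FPKM in ACSS2-flox. Its groups overlapped by 19.95 FPKM in ACSS2-HKO against 20.2 FPKM in ACSS2-flox, and its log2 fold change was 0.57 ± 0.24 (limma adjusted p = 0.649) and 0.23 ± 0.17 without both. Sparc, a collagen-binding protein, overlapped at 33.4 to 56.6 FPKM in ACSS2-HKO and 13.5 to 48.7 FPKM in ACSS2-flox, and its log2 fold change of 0.68 ± 0.41 was 0.03 without both distant libraries. Postn, which encodes periostin, overlapped through ACSS2-HKO replicate 3 alone, at 4.58 FPKM against 4.76 FPKM in ACSS2-flox replicate 3. Its log2 fold change was 0.45 ± 0.22, and 0.55 ± 0.18 without both distant libraries. Fbn1, the microfibril gene fibrillin 1, was without overlap at 0.427, 0.404 and 0.866 FPKM in ACSS2-HKO, against 0.152, 0.297 and 0.394 FPKM in ACSS2-flox. Eln, which encodes elastin, overlapped at means of 0.309 FPKM in ACSS2-HKO and 0.229 FPKM in ACSS2-flox.

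Cross-linking enzymes all averaged under 1 FPKM. Lysyl oxidases oxidise lysines of collagen and elastin so that fibres become insoluble. Loxl1 read 0.695, 0.559 and 0.880 FPKM in ACSS2-HKO, against 0.302, 0.395 and 0.274 FPKM in ACSS2-flox, without overlap. Loxl2 read 1.22, 0.856 and 1.31 FPKM in ACSS2-HKO, against 0.192, 0.569 and 0.873 FPKM in ACSS2-flox, so that ACSS2-HKO replicate 2 lay just inside the other group. Lox itself read 0.0310, 0.318 and 0.372 FPKM in ACSS2-HKO, against 0.0195, 0.0767 and 0.0515 FPKM in ACSS2-flox. It was high in 2 of 3 ACSS2-HKO libraries, at 52 and 67 fragments, while ACSS2-HKO replicate 1 had 5 fragments and the ACSS2-flox libraries had 3, 13 and 9.

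Among proteases and their inhibitors, Mmp14, Mmp2 and Timp1 had groups without overlap. Mmp14 (chromosome 14, 54431612 to 54445364) encodes the membrane metalloproteinase that cleaves fibrillar collagen and activates MMP2. It read 21.98, 23.5 and 23.5 FPKM in ACSS2-HKO, against 14.3, 17.0 and 11.2 FPKM in ACSS2-flox. The ACSS2-HKO libraries lay close together, at a mean of 23.0 ± 0.889 FPKM, against 14.2 ± 2.90 FPKM in ACSS2-flox (SD, n = 3 each). The log2 fold change was 0.68 ± 0.19 (limma adjusted p = 0.607, exact permutation p = 0.1), and 0.68 ± 0.21 without both distant libraries. Its rank by p among the 9818 genes was 108, next to Col1a1 at 107. Mmp2, the gelatinase, read 1.17, 1.05 and 1.42 FPKM in ACSS2-HKO, against 0.444, 0.545 and 0.871 FPKM in ACSS2-flox, without overlap.

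Timp1 (chromosome X, 20870166 to 20874735) had the highest ratio of means among the 48 matrix genes above 0 in every library. It read 1.95, 0.597 and 2.29 FPKM in ACSS2-HKO, against 0.0669, 0.152 and 0.295 FPKM in ACSS2-flox. These are 61, 19 and 80 fragments in ACSS2-HKO and 2, 5 and 10 in ACSS2-flox, so the ACSS2-flox level carries a large counting error. The means of 1.61 ± 0.894 FPKM in ACSS2-HKO and 0.171 ± 0.115 FPKM in ACSS2-flox (SD, n = 3 each) had a ratio of 9.41. With voom on fragments, over 13071 genes with a mean of at least 10, the log2 fold change was 3.10 (limma voom adjusted p = 0.678), and the exact permutation p on log2(FPKM + 1) was 0.1. On the log2(FPKM + 1) scale the difference was 1.09, and 0.83 without both distant libraries. The gene lies on the plus strand within Syn1, a minus-strand gene at a mean of 0.372 FPKM, and the pair has no exon bases in common in the annotation. Timp2 read 4.88 to 6.50 FPKM in ACSS2-HKO and 2.50 to 5.01 FPKM in ACSS2-flox, and its log2 fold change of 0.41 ± 0.24 was 0.06 without both. Timp3, which is held in the matrix, read 15.4, 8.56 and 6.27 FPKM in ACSS2-HKO, against 4.66, 12.1 and 15.0 FPKM in ACSS2-flox, a log2 fold change of -0.02 ± 0.43 whose sign turned with single libraries left out. Its exons share 1733 bases with Syn3 on the opposite strand, which read 0.0198 FPKM, and the sources used here do not say whether counting used strand.

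The promoters of Mmp14 and Timp1 are shown because a protease and an inhibitor both read higher without overlap. Source, build and capitals are as above.
Mmp14 (chr14:54431348-54431597, plus strand): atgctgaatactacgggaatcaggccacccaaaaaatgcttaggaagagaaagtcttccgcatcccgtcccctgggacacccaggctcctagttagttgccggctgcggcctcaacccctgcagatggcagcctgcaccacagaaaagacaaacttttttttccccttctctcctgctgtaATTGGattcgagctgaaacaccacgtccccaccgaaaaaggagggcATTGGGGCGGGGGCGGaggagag
Timp1 (chrX:20869916-20870165, plus strand): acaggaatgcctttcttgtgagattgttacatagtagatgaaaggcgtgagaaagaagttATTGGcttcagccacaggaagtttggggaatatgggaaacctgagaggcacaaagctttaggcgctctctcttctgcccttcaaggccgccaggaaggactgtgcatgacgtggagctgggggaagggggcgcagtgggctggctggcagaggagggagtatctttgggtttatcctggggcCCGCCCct

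Each has a CCAAT box and a GC box, and in Mmp14 a CCAAT match (read as ATTGG on this strand) and a GC box overlap near the start. Neither window holds the AP-1 letters searched or the SMAD letters.

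**Figure D3:**
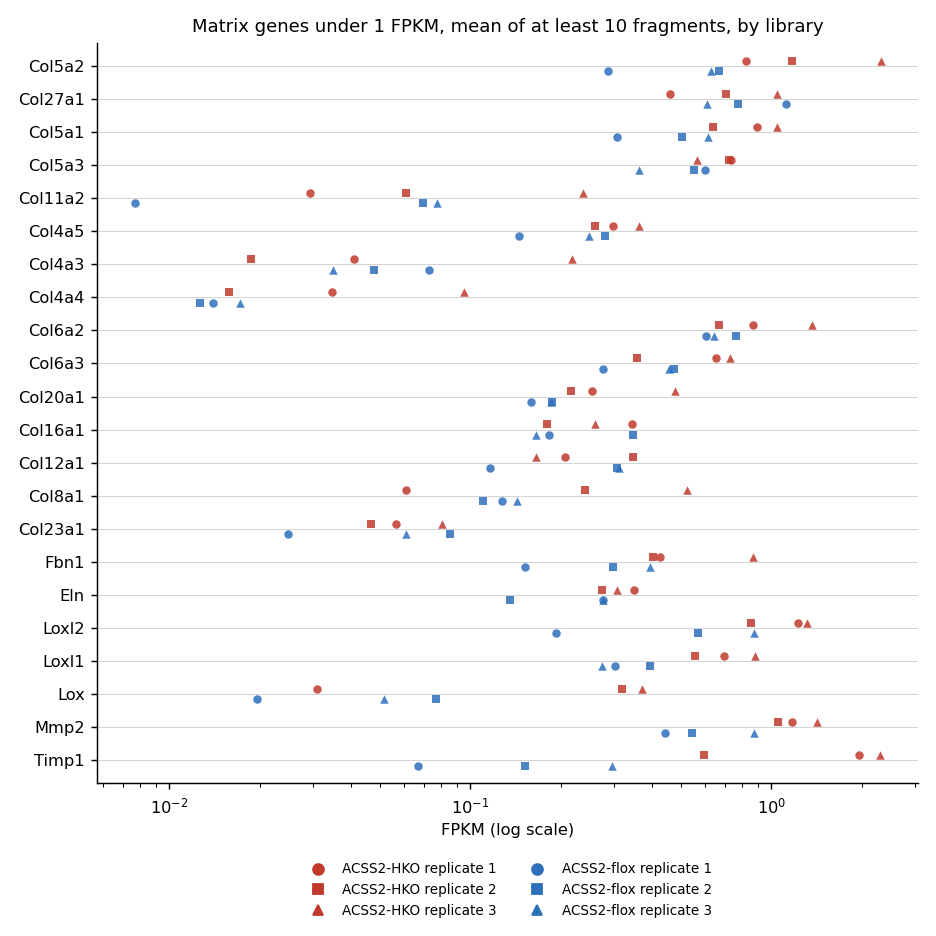
FPKM (log scale) of the 22 matrix genes under a mean of 1 FPKM that had a mean of at least 10 fragments, each point a library, ACSS2-HKO in red above ACSS2-flox in blue, with the marker shape giving the replicate. Timp1 has its ACSS2-HKO points at 0.597 to 2.29 FPKM, all right of its ACSS2-flox points at 0.0669 to 0.295 FPKM.

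The fibrosis cytokine gene and the stromal markers differed from one another. Tgfb1, which encodes transforming growth factor beta 1, read 12.1, 8.88 and 19.9 FPKM in ACSS2-HKO, against 3.94, 11.4 and 10.3 FPKM in ACSS2-flox. It overlapped, and its log2 fold change of 0.66 ± 0.39 (limma adjusted p = 0.702) was -0.05 ± 0.18 without both distant libraries. Pdgfrb, the platelet-derived growth factor receptor of stellate cells and pericytes, read 1.81, 1.15 and 2.29 FPKM in ACSS2-HKO, against 0.524, 1.12 and 0.991 FPKM in ACSS2-flox. It was without overlap by 1.15 FPKM in ACSS2-HKO against 1.12 FPKM in ACSS2-flox. Its log2 fold change was 0.54 ± 0.22 (limma adjusted p = 0.637), and 0.26 ± 0.18 without both distant libraries. Pdgfrb passed the 1 FPKM level through ACSS2-HKO, at means of 1.75 FPKM in ACSS2-HKO and 0.879 FPKM in ACSS2-flox. It is among the 7 tested genes without overlap and the 6 unadjusted calls, so the filter bears on both counts. Acta2, smooth muscle actin and the usual marker of myofibroblasts, read 1.58, 1.28 and 1.69 FPKM in ACSS2-HKO, against 2.02, 1.28 and 1.35 FPKM in ACSS2-flox. Its groups overlapped and its log2 fold change was -0.01 ± 0.18 (limma adjusted p = 0.992), with a sign that turned under TPM scaling and with single libraries left out.

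Among the genes under a mean of 1 FPKM, 29 of 37 had the higher mean in ACSS2-HKO. Most genes of the table leaned the same way. With no filter, log2 fold changes were positive for 50 of the 60 matrix genes, against 66.5% of all 16135 genes. The groups did not overlap for 7 of the 37 with ACSS2-HKO higher, where the share over the whole table was 11.3%, and for 1, Col25a1, with ACSS2-HKO lower, where it was 2.5%. The 7 were Col5a2, Mmp2, Timp1, Col5a1, Loxl1, Fbn1 and Col20a1. Voom covered 45 of the 60 genes and gave positive log2 fold changes for 41, against 68.9% of all genes in that test. At an unadjusted p under 0.05 it had 12 higher, against a background of 6.04%, and 0 lower, against 1.25%. After adjustment 0 passed, and the smallest adjusted p among the 45 was 0.678.

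Ratios of 2 genes within a library do not depend on the library's total, and 6 were compared. The ratio of Col1a1 to Col1a2 was 0.862, 0.651 and 0.759 in ACSS2-HKO, against 0.642, 0.531 and 0.524 in ACSS2-flox. The groups were apart by 0.651 in ACSS2-HKO against 0.642 in ACSS2-flox, and the ratio was 1.34-fold higher in ACSS2-HKO by geometric means. Col3a1 over Col1a1 was 2.48, 3.37 and 2.87 in ACSS2-HKO, against 4.65, 3.90 and 3.98 in ACSS2-flox, so Col1a1 was higher relative to Col3a1 in each ACSS2-HKO library. Timp1 over Mmp2 was 1.66, 0.568 and 1.62 in ACSS2-HKO, against 0.151, 0.278 and 0.338 in ACSS2-flox. For these 3 ratios the exact two-sided permutation p was 0.1, the smallest possible, and 0.2 after Benjamini-Hochberg adjustment over the 6. Their differences on the log2 scale ran from 0.32 to 0.52, from -0.64 to -0.42 and from 1.91 to 2.76 with each library left out in turn. They were smaller with 1 added to both FPKM values, at 0.19, -0.14 and 0.64. Col4a1 over Col4a2 was 1.30 to 2.53 in ACSS2-HKO and 1.29 to 1.82 in ACSS2-flox (exact permutation p = 0.6). Col6a1 over Col6a2 and Col5a1 over Col5a2 overlapped as well, with exact permutation p of 0.5 and 0.4.

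**Figure D4:**
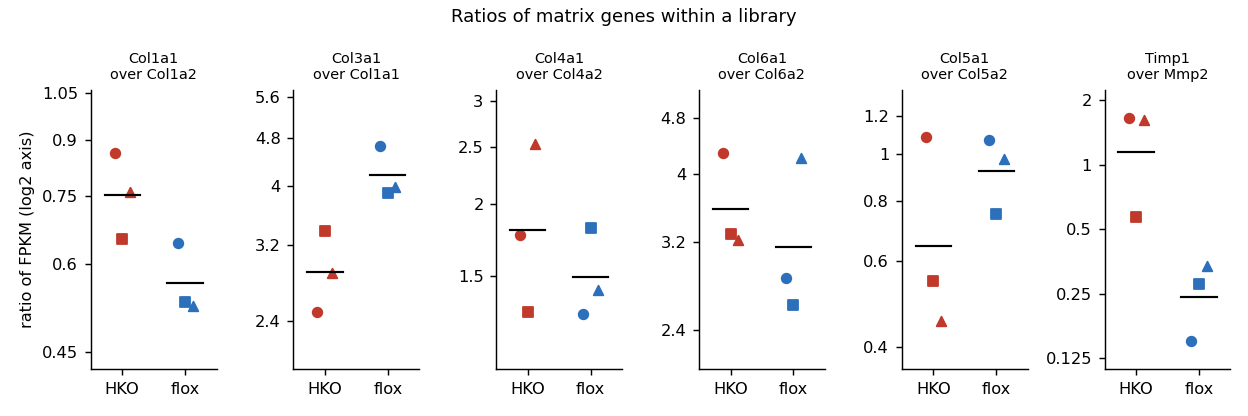
Ratio of FPKM of 2 genes within each library (log2 axis, its range set per panel), ACSS2-HKO in red left of ACSS2-flox in blue, with the marker shape giving the replicate and bars for the geometric mean. Col1a1 over Col1a2, Col3a1 over Col1a1 and Timp1 over Mmp2 have no overlap between the groups.

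Genes that build and anchor collagen were read beside the chains. Of 28 collagen processing genes 16 were tested, and all 16 were positive in log2 fold change, against 66% of all tested genes. Their median was 0.40, against 0.10 for all genes. By limma 0 passed after adjustment and 3 of 16 were higher at an unadjusted p under 0.05 (background 6.09%). Groups did not overlap for 6 of 16, all higher (background 12.5%). P4hb, a subunit of prolyl hydroxylase that also serves protein folding at large, read 874, 731 and 705 FPKM in ACSS2-HKO, against 464, 551 and 520 FPKM in ACSS2-flox. Plod1, a lysyl hydroxylase, read 31.8, 23.0 and 25.4 FPKM in ACSS2-HKO, against 11.3, 18.8 and 19.7 FPKM in ACSS2-flox. The list median was 0.18 without both distant libraries. Of 15 laminin and other basement membrane genes 7 were tested and 7 were positive (background 66%), with a median of 0.42 (0.24 without both distant libraries). Among them Nid1, which links laminin to type IV collagen, read 15.1, 6.33 and 10.4 FPKM in ACSS2-HKO, against 1.58, 4.69 and 5.72 FPKM in ACSS2-flox (log2 fold change 1.25 ± 0.40, limma adjusted p = 0.637). Lamb1, also among the 7, passed the 1 FPKM level through ACSS2-HKO, at means of 1.55 FPKM in ACSS2-HKO and 0.826 FPKM in ACSS2-flox. The filter therefore bears on the tally of 7. Of 28 genes of transforming growth factor beta signalling 18 were tested, with 15 positive (background 66%) and a median of 0.12. In that list 0 had an unadjusted p under 0.05 by limma (background 6.09% higher and 1.5% lower). Groups without overlap were also 0 (background 12.5% higher and 2.94% lower), and without both distant libraries the median was -0.05.

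Markers of the cells that could supply these transcripts are given as measured values, against 66% of all tested genes with a positive log2 fold change. Fewer cells of a type and less RNA per cell cannot be told apart in whole liver. Of 14 stellate cell markers 11 were tested, 3 positive and 8 negative (median log2 fold change -0.06). That tally turned with the libraries: 10 of 11 were positive without ACSS2-HKO replicate 3 (median 0.17) and 8 of 11 without both distant libraries (median 0.02). Their summed level was 79.2 to 177 FPKM in ACSS2-HKO and 124 to 165 FPKM in ACSS2-flox, lowest in ACSS2-HKO replicate 3, the library with the most collagen. The summed level of the 40 collagens was 143, 140 and 197 FPKM in ACSS2-HKO, against 98.3, 125 and 119 FPKM in ACSS2-flox. Of 14 markers of portal fibroblasts and mesothelium 4 were tested and 3 were positive (median 0.26), with summed levels of 9.38 to 16.8 FPKM in ACSS2-HKO and 8.46 to 11.5 FPKM in ACSS2-flox. Cd34, among these 4, passed the 1 FPKM level through ACSS2-HKO, at means of 1.81 FPKM in ACSS2-HKO and 0.846 FPKM in ACSS2-flox. The filter therefore bears on this tally. Of 7 vascular smooth muscle markers 3 were tested, all positive (median 0.18), with summed levels of 9.51 to 12.1 FPKM in ACSS2-HKO and 6.76 to 11.1 FPKM in ACSS2-flox. Without ACSS2-flox replicate 1 (median -0.01) and without both distant libraries (median -0.08) 1 of the 3 was positive. All 13 sinusoidal endothelial markers were tested and 10 were positive (median 0.17). Their sum was 214 to 258 FPKM in ACSS2-HKO, against 79.4 FPKM in ACSS2-flox replicate 1 and 289 and 338 FPKM in the other ACSS2-flox libraries, and without ACSS2-flox replicate 1 just 1 of 13 was positive. All 12 macrophage markers were positive, 11 at an unadjusted p under 0.05 by limma (background 6.09% higher) and 0 after adjustment, with a median of 0.90 (0.41 without both distant libraries) and sums of 774, 721 and 1780 FPKM in ACSS2-HKO, against 391.6, 607 and 516 FPKM in ACSS2-flox. Of 12 neutrophil markers 4 were tested and positive (median 2.53, and 1.74 without both distant libraries). Their sums were 39.3, 54.9 and 360 FPKM in ACSS2-HKO, against 17.9, 14.1 and 8.12 FPKM in ACSS2-flox. Among them Retnlg passed the 1 FPKM level through ACSS2-HKO, at means of 11.3 FPKM in ACSS2-HKO and 0.655 FPKM in ACSS2-flox. The tally and median of this list are therefore partly set by the filter. Of 9 cholangiocyte markers 3 were tested and positive (median 0.32). Muc1, among these 3, also passed the 1 FPKM level through ACSS2-HKO, at means of 1.54 FPKM in ACSS2-HKO and 0.509 FPKM in ACSS2-flox. The filter therefore bears on the cholangiocyte tally as well. The table lists no gene at 0 in all 6 libraries, so a marker detected in none would be absent from it and from these counts. The part of these cell markers in the matrix values was not tested.

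**Figure D5:**
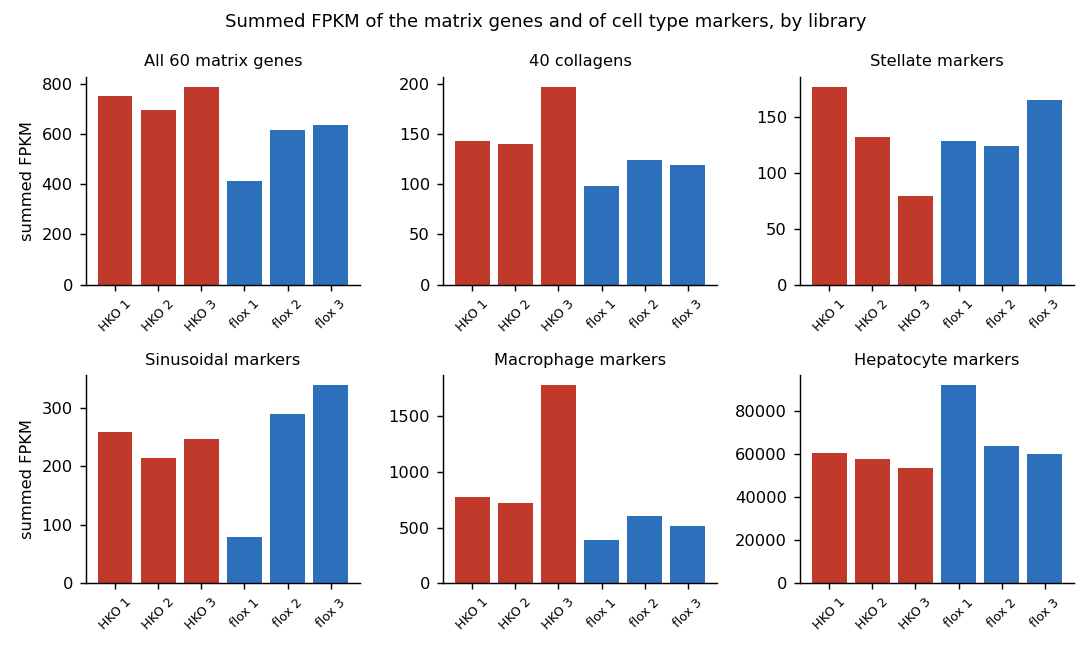
Summed FPKM of the 60 matrix genes, the 40 collagens and 4 lists of cell type markers in each library, ACSS2-HKO in red left of ACSS2-flox in blue. ACSS2-HKO replicate 3 has the highest collagen sum (197 FPKM) and the lowest stellate sum (79.2 FPKM), and ACSS2-flox replicate 1 the lowest sinusoidal sum (79.4 FPKM).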

How the data were processed

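Per the labels, total RNA of mouse liver went into 6 libraries prepared with VAHTS Universal V6 reagents. The authors deposited 1 table of FPKM values, and the submitters' processing notes name mm10 and DESeq2 without a role. Aligner, counter, annotation and strand setting: not given in the sources used here. Groups follow the genotype label. The members and gene lists were chosen with earlier results of these data known. Whole fragments and gene lengths were recovered from the FPKM values, within 0.01 of a whole number, for 14855 genes (92.1%), and 1280 genes above 0 in under 3 libraries were left unresolved. Genes averaging 1 FPKM or more were tested with limma 3.58.1 in R 4.3.3 on log2(FPKM + 1), which understates changes of low genes. The fit used a mean-variance trend, two-sided p and Benjamini-Hochberg adjustment over 9818 genes. The threshold was 0.05. Limma voom on fragments was an alternative added after seeing the data, and single values had exact permutation tests, which cannot go below 0.1. The fit and the recovery were tested on simulated data.

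Named genes are the 8 of smallest p in each direction among tested members, the 2 most abundant of each role, 11 fixed members (Col1a1, Col1a2, Col3a1, Col4a1, Col4a2, Acta2, Timp1, Tgfb1, Lox, Mmp2 and Fn1), the 5 most abundant under 1 FPKM and 2 per further list. Other members were named after their values were seen. Coordinates are from GENCODE M21 (GRCm38), which held all 60 symbols. Replicate numbers did not pair the samples: deviations of same-numbered libraries correlated at 0.0132, 0.0032 and -0.0627. Alternatives covered pseudocounts, filters, scalings, gene length, variance models, the replicate block and each library left out.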

Additional observations from a re-analysis of the deposited data

How the results depend on the processing

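By limma 0 members passed the adjusted threshold under any alternative that was run, and over all genes the count was 0 except in 2 cases, with genes named after their values were seen. With the replicate number as a block, which the data do not bear out as a pairing, 4 genes passed (Hamp2, Mup2, Upp2 and Ifi27l2b). With single libraries left out the count over all genes ran from 0 to 3 and that of members from 0 to 0, and the 3 genes without ACSS2-HKO replicate 2 were Ly6d, Smpd3 and Ifi27l2b. Each replicate number occurs in both groups, so the block cannot change the difference of a ratio and is no check of it. Under the block 9 members were higher at an unadjusted p under 0.05 (6.7% of all genes), against 6 without it (6.09%). Over all tested genes, unadjusted calls were 598 higher and 147 lower as deposited, 371 and 302 after median-ratio scaling, 381 and 299 after trimmed-mean scaling, 391 and 357 after quantile normalization, 409 and 378 after gene length correction, and 502 and 460 without ACSS2-flox replicate 1. The member median of 0.48 moved by more than the spread between replicates (0.31) in 1 case, to 0.165 without both distant libraries, and its range when 1 library was dropped was 0.262 to 0.635. The cause was not tested.

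Of 53 named genes, 7 turned in sign under some alternative. Without both distant libraries Tgfb1 read -0.0536, Acta2 0.0644, Col13a1 -0.0687, Cd34 -0.16, Smtn -0.0771 and Pecam1 -0.197. TPM scaling gave Timp3 0.0218 and Acta2 0.022, array weights gave Acta2 0.0877, and quantile normalization gave Smtn -0.00954. When 1 library was dropped Timp3 ran from -0.471 to 0.278, Acta2 from -0.0879 to 0.115, Col13a1 from -0.0944 to 0.582, Smtn from -0.0138 to 0.369 and Pecam1 from -0.0258 to 0.884. The 6 ratios kept their direction under the alternatives run, of which the block could not have changed it. Leaving out both distant libraries was not run for the ratios. In the libraries that remain, Col4a1 over Col4a2 was 1.76 and 1.30 in ACSS2-HKO, against 1.82 and 1.42 in ACSS2-flox. The higher ratio in ACSS2-HKO with all 6 libraries is therefore not seen there. Lum, which is outside the 53, turned without both distant libraries. Depth limits the lowest members, such as Timp1 in ACSS2-flox with 2, 5 and 10 fragments.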

Other observations

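Among genes outside the members, collagen receptors and integrins had positive log2 fold changes for 8 of 8 tested, against 66% of all tested genes. Their median was 0.44 (0.13 without both distant libraries). Cd36, the scavenger receptor that binds collagen and takes up fatty acids, had the smallest p of that list. It read 74.3, 55.2 and 53.4 FPKM in ACSS2-HKO, against 23.0, 29.2 and 32.7 FPKM in ACSS2-flox, without overlap (log2 fold change 1.08 ± 0.21, limma adjusted p = 0.452). The hyaluronan receptor gene Cd44 overlapped, at 4.88 to 12.1 FPKM in ACSS2-HKO and 2.52 to 5.85 FPKM in ACSS2-flox. Of 10 tested proteases and inhibitors outside the members 9 were positive, with a median of 0.41 (0.04 without both distant libraries). Mmp19, a secreted metalloproteinase, read 27.1, 28.6 and 27.4 FPKM in ACSS2-HKO, against 20.2, 20.4 and 16.1 FPKM in ACSS2-flox, without overlap. Mmp7, which encodes matrilysin, read 2.26, 1.35 and 7.95 FPKM in ACSS2-HKO, against 0.798, 1.01 and 0.281 FPKM in ACSS2-flox. Its log2 fold change was 1.30 ± 0.45 (limma adjusted p = 0.637), and 0.78 without both distant libraries. The ACSS2-flox values are 30, 42 and 12 fragments. Mmp7 passed the 1 FPKM level through ACSS2-HKO, at means of 3.85 FPKM in ACSS2-HKO and 0.697 FPKM in ACSS2-flox. The filter therefore bears on its change and on the tally of 9 of 10.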
